A study of Mus musculus with 6 samples.

Results

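The genes described here build the coats that cut vesicles out of the plasma membrane and of internal membranes. They are the clathrin chains, the subunits of the adaptor complexes AP-1 to AP-5, the dynamins, the EHD proteins and the endocytic adaptors Epn1 to Epn3, Eps15, Eps15l1 and Picalm. They were matched by gene symbol. The symbols matched 48 of the 55487 gene rows, of which 44 are genes and 4 are processed pseudogenes (Ap2m1-ps, Ap3s1-ps1, Ap3s1-ps2 and Ap3m1-ps).

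Messenger RNA with poly(A) tails was sequenced from macrophages that had been grown from bone marrow of BALB/c mice, which were wild-type females aged 6 to 12 weeks. All cells grew for 8 days with 20% L929-conditioned medium, which supplies the growth factor for macrophages, and then spent 24 hours in 10 ng/mL IL-4 plus 10 ng/mL IL-13, the cytokines of M2 polarization. The NP group (3 libraries) next received nanoparticles at 200 µg/mL for 24 hours, made of poly(lactide-co-glycolide) by the series title and marked PEMA, a term not explained in the sources used here, in the treatment label. The PBS group (3 libraries) received the vehicle for 24 hours. The labels do not say whether the libraries came from separate animals or cultures, so the p-values below reflect the spread among these 6 libraries alone, which may be technical.

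Clathrin forms a cage of heavy chains (Cltc) with bound light chains (Clta and Cltb), and adaptor complexes join that cage to the membrane and to cargo. AP-2 works at the plasma membrane, AP-1 at the trans-Golgi network and endosomes, and AP-3 on endosomes, from which it sends cargo to lysosomes and related organelles. AP-4 and AP-5 work without clathrin, at the trans-Golgi network and at late endosomes. Each complex has 2 large subunits, 1 medium (mu) and 1 small (sigma) subunit. Dynamins are GTPases that cut the neck of a budding vesicle, and EHD proteins are ATPases that shape and cut membranes of the recycling pathway and the cell surface. Macrophages take up much of their surroundings through these coats as well as by phagocytosis and macropinocytosis.

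Total counts ran from 41974957 to 69450411 per library, and each NP library was deeper than each PBS library. The summed level of 9 macrophage markers was 9860 to 11013 CPM (counts scaled to a common library total) in NP and 13249 to 13468 in PBS, with 1 marker higher and 7 lower. The 4 proliferation markers summed to 391 to 577 CPM in NP and 1058 to 1105 in PBS, and all 4 were lower. In bulk samples such as these, fewer cells of a type and less RNA per cell cannot be told apart, and the part of either shift in the results below was not tested. PBS 2 and PBS 3 stood apart from the other 4 libraries: olfactory and vomeronasal receptor genes summed to 9.70 to 11.9 CPM in NP 1 to 3, to 12.5 CPM in PBS 1, and to 138 and 153 CPM in PBS 2 and PBS 3. The same libraries held nearly all the counts of T cell markers, whose sum was 0 to 0.0165 CPM in NP and 0.0178 to 1.60 CPM in PBS. They also held most counts of 4 neuron markers: Stmn2 had 0, 0 and 1 counts in NP 1 to 3 and 0, 18 and 16 in PBS 1 to 3, and Snap25 had 0, 2 and 1 in NP and 1, 19 and 12 in PBS. Syt1 had 0 in each NP library and 0, 8 and 7 in PBS, and Rbfox3 had 0, 0 and 1 in NP and 0, 8 and 12 in PBS. Marker sums were at most 1.55 CPM for fibroblasts, 1.11 for neutrophils, 0.262 for B cells and 0.0715 for erythroid cells, and the 4 mast cell or basophil markers were at 0 in each library. The sums were 2.60 to 3.08 CPM in NP and 1.64 to 4.00 in PBS for dendritic cells, 16.8 to 18.0 in NP and 17.2 to 18.6 in PBS for neurons (mostly from Map2 and Syp), and 221 to 241 in NP and 217 to 244 in PBS for endothelial cells, almost all of the last from Vwf.

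Promoters of 4 members are printed first, since the results turn on these genes: the clathrin light chains Cltb and Clta, which moved in opposite directions, and Ap1s2 and Ap2m1, which were both lower in NP. Each sequence runs from 250 bases before a transcript start to 50 bases after it, 5′ to 3′ on the strand of the gene, and comes from RefSeq on GRCm38.p6. Capitals mark the E-box CACGTG, which reads the same on both strands.
Cltb (chr13:54611324-54611623, minus strand): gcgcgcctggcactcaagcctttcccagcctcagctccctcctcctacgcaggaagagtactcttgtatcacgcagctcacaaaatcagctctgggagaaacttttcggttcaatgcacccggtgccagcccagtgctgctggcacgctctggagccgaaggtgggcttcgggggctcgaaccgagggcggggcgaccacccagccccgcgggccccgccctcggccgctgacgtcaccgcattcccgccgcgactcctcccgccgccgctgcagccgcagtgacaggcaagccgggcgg
Clta (chr4:44012420-44012719, plus strand): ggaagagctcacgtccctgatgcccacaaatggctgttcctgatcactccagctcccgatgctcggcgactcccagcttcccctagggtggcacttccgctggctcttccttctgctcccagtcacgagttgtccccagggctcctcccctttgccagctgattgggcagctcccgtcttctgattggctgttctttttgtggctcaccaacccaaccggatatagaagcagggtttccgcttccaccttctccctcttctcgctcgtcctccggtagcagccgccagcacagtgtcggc
Ap1s2 (chrX:163908767-163909066, plus strand): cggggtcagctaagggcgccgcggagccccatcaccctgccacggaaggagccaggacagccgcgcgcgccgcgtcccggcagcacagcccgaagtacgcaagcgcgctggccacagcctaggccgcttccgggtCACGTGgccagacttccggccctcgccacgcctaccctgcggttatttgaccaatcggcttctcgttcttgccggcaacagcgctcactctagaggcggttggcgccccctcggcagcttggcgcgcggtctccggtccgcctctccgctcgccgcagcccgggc
Ap2m1 (chr16:20535230-20535529, plus strand): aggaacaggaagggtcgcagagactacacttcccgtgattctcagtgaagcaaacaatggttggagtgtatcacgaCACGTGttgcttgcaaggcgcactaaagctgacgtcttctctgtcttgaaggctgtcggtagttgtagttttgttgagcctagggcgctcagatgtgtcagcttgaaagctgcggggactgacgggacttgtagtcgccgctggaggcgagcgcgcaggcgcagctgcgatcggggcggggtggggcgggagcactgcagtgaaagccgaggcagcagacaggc
The E-box stood once in the Ap1s2 window and once in the Ap2m1 window, and in neither light chain window. Clta has 2 windows; the one shown lies inside the gene as annotated by GENCODE, whose start is at 44004452, and its end is found in all 6 GENCODE transcripts, while the other window (chr4:44004193-44004492) lies at the gene's start. Of the 44 genes, 39 matched the RefSeq table, with 41 windows. CACGTG was in 7 of these windows (17.1%), from Ap1s2, Ap2m1, Ap5z1, Epn1, Eps15l1 and Picalm, against 7.15% of all 32851 windows. The Epn1 windows overlap and hold the same E-box, so by gene it was in 6 of 39. The longer motif GTCACGTG, searched on both strands and itself holding CACGTG, was in 2 windows (4.88%; Ap1s2 and Picalm), against 2.25% of all windows. Of the 6 members with the E-box, 3 were lower in NP (Ap1s2, Ap2m1 and Epn1), 1 was higher (Ap5z1) and 2 were not called. Over all tested genes 21.4% were lower and 19.8% higher, and whether the E-box goes with a direction was not tested. A match of letters is a description and shows no binding.

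Of the 48 members, 45 passed the low-count filter and were tested with limma voom over all 14478 genes that passed. In NP macrophages, 8 members were higher and 14 lower than in PBS macrophages at a Benjamini-Hochberg adjusted p under 0.05, and 23 were not called. With library totals in place of scaled ones 5 were higher and 15 lower, and without NP 3 there were 7 higher and 9 lower. Without PBS 2 and PBS 3, which leaves PBS 1 alone against NP, fewer passed in both directions, among members and over all genes. Of the 14, Ap1m2 passed the low-count filter only through the PBS libraries, where it is high, so its direction was set by the filter. The main counts are 17.8% higher and 31.1% lower, where 19.8% of all tested genes were called higher and 21.4% lower. For 25 members the NP values lay apart from all PBS values (55.6%), as they did for 53.3% of all tested genes. The members' median log2 fold change (NP minus PBS) was -0.02, against -0.00 for all tested genes. In 41 of the 45 (91.1%) the change was under 0.5 in size, against 84.3% of all tested genes, and 3 (6.67%) differed at least 2-fold, against 4.86% of all. Those 3, Ap1m2, Dnm3 and Ehd2, were lower in NP and at low levels.

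The members left untested had almost no counts. Epn3, an epsin of epithelia, had 1 count in NP 2 and 0 elsewhere, Ap3b2, the neuronal AP-3 beta chain, had 0 counts in NP and 1, 0 and 1 in PBS, and the pseudogene Ap3s1-ps2 had 8 to 21 in NP and 7 to 9 in PBS. The 3 tested pseudogenes were not called. Ap2m1-ps had 1162 counts in NP and 1042 in PBS in all, against 95914 and 94393 for Ap2m1. RSEM divides reads between copies that share sequence, so values of pseudogenes and their parents are uncertain. The complexes below are counted without pseudogenes.

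**Figure D1:**
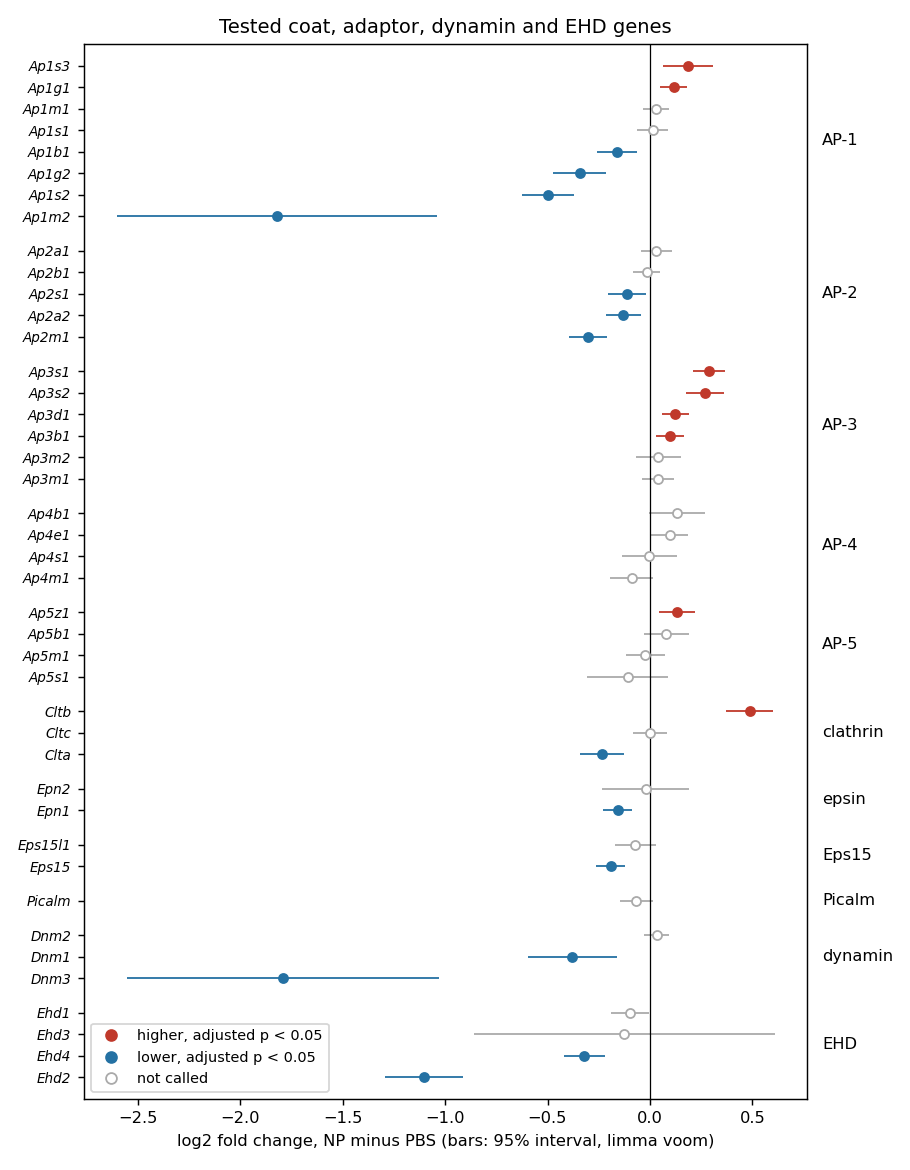
Log2 fold change (NP minus PBS, x axis) with its 95% interval for the 42 tested members that are not pseudogenes, by family (y axis). Filled points passed adjusted p of 0.05 (red higher, blue lower) and open grey points did not; most points lie within 0.5 of 0, and the 3 farthest to the left are Ap1m2, Dnm3 and Ehd2.

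Calls went in different directions in different adaptor complexes, and the differences between complexes are described without a test. The 27 tested subunits split evenly, with 7 higher and 7 lower in NP (25.9% each, Ap1m2 among the lower). Of the 15 other tested genes 1 was higher (6.67%) and 7 were lower (46.7%, median -0.13). Over all tested genes 19.8% were higher and 21.4% lower. AP-3 had 4 subunits higher (66.7%) and 0 lower of 6 tested, and AP-2 had 0 higher and 3 lower (60%) of 5. AP-1 had 2 higher (25%) and 4 lower (50%) of 8 (2 and 3 of 7 without Ap1m2). AP-4 had 0 of 4 called and AP-5 had 1 of 4 higher (25%). The shares higher in AP-1 and AP-5 thus lay near that of all genes. AP-2 had 1 lower without NP 1, NP 3, PBS 1 or PBS 3 alone and with the replicate block. AP-1 had 2 higher and 2 lower without NP 1 or NP 3. Median log2 fold changes were -0.07 for AP-1, -0.11 for AP-2, 0.11 for AP-3, 0.05 for AP-4 and 0.03 for AP-5, the last turning to -0.01 with library totals alone. Without PBS 2 and PBS 3, which leaves PBS 1 alone against NP, fewer subunits and fewer of all genes passed. The medians there were -0.09 for AP-1, -0.12 for AP-2, 0.11 for AP-3, 0.01 for AP-4 and -0.01 for AP-5.

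The complexes were also followed library by library, as the median over subunits of log2 CPM relative to the mean of the PBS libraries. AP-3 lay at 0.12, 0.11 and 0.10 in NP 1 to 3 and at -0.02, 0.01 and 0.00 in PBS 1 to 3. AP-2 lay at -0.13, -0.06 and -0.14 in NP and at -0.00, -0.03 and 0.06 in PBS. AP-1 lay at -0.08, -0.05 and -0.08 in NP and at 0.01, -0.03 and 0.01 in PBS. For AP-3 each NP library lay above each PBS library and for AP-2 below, whereas for AP-4 and AP-5 the groups overlapped. The AP-1 groups lay apart only with Ap1m2 counted: without it, an alternative chosen after seeing the data, AP-1 lay at 0.01 in each NP library and at -0.01 to 0.01 in PBS, overlapping. The difference between the AP-3 and AP-2 medians was 0.17 to 0.26 in NP and -0.06 to 0.05 in PBS, without overlap. That between AP-3 and AP-1 was 0.16 to 0.21 in NP and -0.02 to 0.05 in PBS, and without Ap1m2 it was 0.09 to 0.11 in NP and -0.03 to 0.03 in PBS, again without overlap. The AP-3 and AP-4 medians also lay further apart in NP (0.05 to 0.09) than in PBS (-0.04 to 0.05). The AP-3 minus AP-5 differences (0.01 to 0.14 in NP, -0.06 to 0.04 in PBS) and the AP-1 minus AP-2 differences (0.01 to 0.06 in NP, -0.06 to 0.01 in PBS) overlapped. The AP-1 median fold change turned to 0.01 without Ap1m2, as it did with a strict filter of 1 CPM, which drops it.

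**Figure D2:**
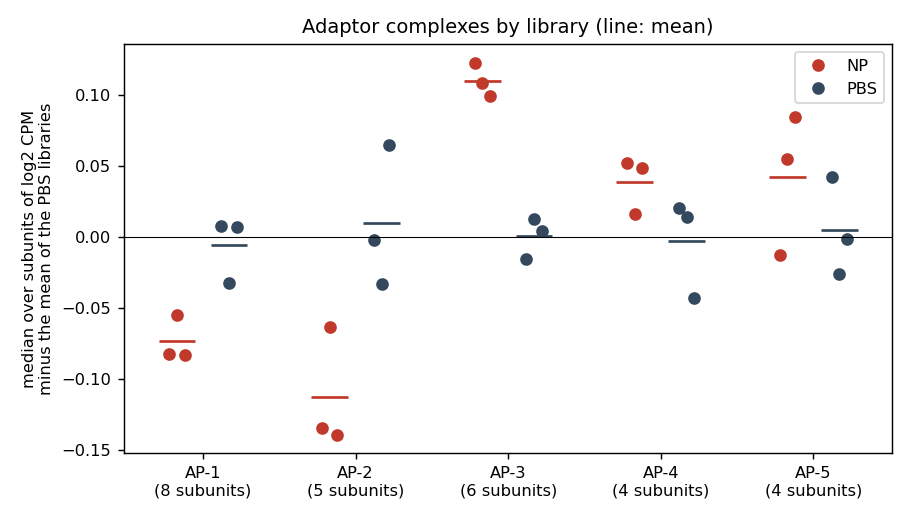
Median over the tested subunits of each adaptor complex of log2 CPM minus the mean of the PBS libraries (y axis), 1 point per library, NP left of PBS, with the mean of the 3 libraries as a line. AP-3 lies above its PBS libraries in each NP library, AP-2 lies below, AP-1 lies below only with the low-count Ap1m2 included, and AP-4 and AP-5 overlap.

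AP-2 had 3 of 5 tested subunits lower in NP and 0 higher. Ap2m1, its mu subunit, which binds cargo through tyrosine signals and is the highest AP-2 subunit per length, was at 529, 493 and 499.8 CPM in NP 1 to 3 and at 604, 619.7 and 654 CPM in PBS 1 to 3. All NP libraries were below all PBS libraries, and the log2 fold change was -0.30 (SE 0.04, adjusted p = 0.00038, limma voom). Ap2a2, an alpha chain, fell by 0.13 on the log2 scale (SE 0.04), and Ap2s1, the sigma subunit, fell by 0.11 (SE 0.04, adjusted p = 0.0498), with NP 2 above PBS 2. The Ap2a2 call was lost under 8 of 15 alternatives, among them those without NP 1, NP 3, PBS 1 or PBS 3 (adjusted p = 0.088 to 0.131), and the Ap2s1 call under 11, among them those without NP 1, NP 2, NP 3, PBS 1 or PBS 3 (0.055 to 0.234). Ap2b1, the beta chain that holds clathrin, and Ap2a1, the other alpha chain, had log2 fold changes of -0.02 and 0.03 and were not called. Ap2a1 shares 16.7% of its exonic length with Fuz on the opposite strand, and the strand setting is not given in the sources used here.

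AP-3 was the only complex with all of its tested subunits above 0, though 2 of the 6 were not called and Ap3m2 fell just below 0 with the receptor covariate and with sample quality weights. Ap3s1, a sigma subunit and the highest AP-3 subunit per length, was at 126, 121 and 121 CPM in NP and at 97.1, 102 and 102 CPM in PBS, without overlap (log2 fold change 0.29, SE 0.03, adjusted p = 0.000233, limma voom). Ap3s2, the other sigma subunit, gave 43.9, 41.3 and 42.0 CPM in NP and 34.2, 36.6 and 35.2 CPM in PBS (0.27, SE 0.04, adjusted p = 0.000803). Ap3d1, the delta chain lost in the mocha mouse, and Ap3b1, the beta chain lost in the pearl mouse, rose less, by 0.12 and 0.10 (SE 0.03 each). Ap3m1 and Ap3m2, the mu subunits, each had 0.04 and were not called; 29.8% of the exonic length of Ap3m1 lies against Vcl on the opposite strand. The calls of Ap3d1 (2 alternatives) and Ap3b1 (5 alternatives) were lost with the receptor covariate (a term for the summed olfactory and vomeronasal counts) and without PBS 2 and PBS 3 (adjusted p = 0.148 and 0.151 without them), while those of Ap3s1 and Ap3s2 held under all 15. Leaving out PBS 2 alone ended the Ap3b1 call (adjusted p = 0.0671).

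AP-1 moved in both directions, chain by chain. Its most abundant subunit per length, Ap1s1, was at 78.4, 78.3 and 78.4 CPM in NP and at 77.8, 80.2 and 75.2 CPM in PBS, overlapping (log2 fold change 0.01, SE 0.03), and Ap1m1, the mu subunit of most cells, had 0.03; neither was called. Of the other sigma subunits, Ap1s2 fell and Ap1s3 rose. Ap1s2 was at 38.5, 43.9 and 39.0 CPM in NP and at 60.0, 54.9 and 55.8 CPM in PBS, without overlap (-0.50, SE 0.06, adjusted p = 0.000158, limma voom). Ap1s3 was at 20.7, 22.8 and 20.6 CPM in NP and at 18.1, 19.4 and 18.8 CPM in PBS, also without overlap (0.19, SE 0.05, adjusted p = 0.0225), and its call was lost under 5 alternatives, among them those without PBS 1 (0.0622) or PBS 3 (0.0579).

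The gamma chains, which bind accessory proteins of the trans-Golgi network, showed the same kind of split. Ap1g1, the main gamma chain, was at 172, 168 and 172 CPM in NP and at 159, 158 and 155 CPM in PBS (log2 fold change 0.12, SE 0.03), a call lost with the receptor covariate and without PBS 2 and PBS 3 (adjusted p = 0.197). Ap1g2 was at 24.7, 28.5 and 25.8 CPM in NP and at 34.7, 31.6 and 33.5 CPM in PBS (-0.34, SE 0.06, adjusted p = 0.00143, limma voom); it overlaps Thtpa on the opposite strand over 9.9% of its exonic length. Ap1b1, the beta chain, fell by 0.16 (SE 0.04), a call that was lost without NP 1, NP 3, PBS 1 or PBS 3 (adjusted p = 0.0659 to 0.102). Ap1m2, the mu subunit of polarized epithelia, had 4, 3 and 3 counts in NP and 11, 8 and 12 in PBS. It passed the low-count filter in 0 NP and 3 PBS libraries, so it could be tested only because PBS is high, and its difference of -1.82 on the log2 scale, from 10 and 31 counts in all, is given as a description. Its call was also lost without any 1 of the NP libraries (adjusted p = 0.131 to 0.142) and without PBS 2 and PBS 3 (0.0517).

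AP-4 and AP-5 had 1 call between them, and their mean levels per length lay below that of Ap1b1 in both groups. In NP the means of Ap5z1, Ap5b1 and Ap4s1 lay above those of Ap1s2, Ap1s3, Ap1g2, Ap3s2 and Ap3m2. Ap4s1, the highest AP-4 subunit per length, was at 9.29, 9.48 and 9.71 CPM in NP and at 9.83, 9.50 and 9.18 CPM in PBS, so the groups overlapped (log2 fold change -0.00, 95% interval -0.14 to 0.13). The AP-4 fold changes ran from -0.09 (Ap4m1) to 0.13 (Ap4b1), and none passed the test. Ap4b1 shares 82.4% of its exonic length with Gm43064 on the same strand, and Ap4m1 shares 22.1% with Taf6 on the opposite strand. Ap5z1, the zeta chain of AP-5, in which changes cause a hereditary spastic paraplegia in people, was at 54.1, 56.1 and 58.2 CPM in NP and at 52.3, 49.5 and 51.6 CPM in PBS, without overlap (0.13, SE 0.04, adjusted p = 0.0237, limma voom). The Ap5z1 call was lost under 8 of 15 alternatives, among them those without NP 3 (0.0883), PBS 2 (0.104) or PBS 3 (0.0641), and the other AP-5 subunits ran from -0.11 (Ap5s1) to 0.08 (Ap5b1) without a call. Leaving out NP 2 brought Ap4b1 past the threshold (0.0407), and leaving out PBS 2 did so for Ap5s1 (0.0472).

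**Figure D3:**
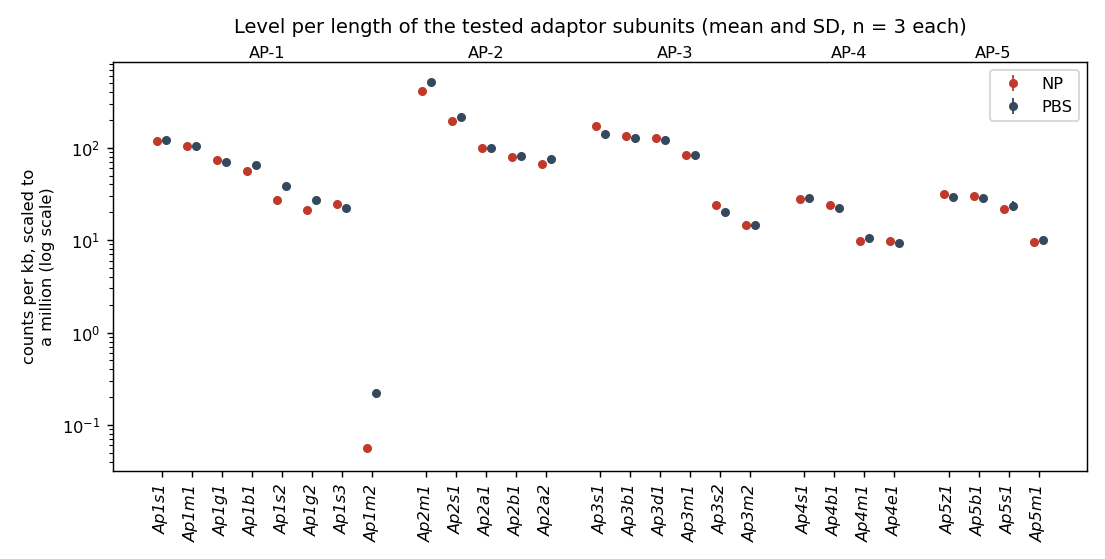
Level per length (TPM from exonic length, log axis) of the 27 tested adaptor subunits, with mean and SD of the 3 NP (left, red) and 3 PBS (right, dark) libraries; most SD bars are smaller than the points. Ap2m1 is the highest and Ap1m2 lies far below the rest. The AP-4 and AP-5 subunits, with group means from 9.34 (Ap4e1 in PBS) to 31.6 (Ap5z1 in NP), lie below Ap1b1 (56.5 in NP and 64.5 in PBS). Several exceed Ap3m2 (14.7 in NP), and in NP the means of Ap5z1, Ap5b1 and Ap4s1 exceed that of Ap1s2 (27.1).

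Levels of different genes are compared as counts per kilobase of exonic length, scaled to the same sum in each library (TPM). Ap2m1 led the adaptors with 409 ± 14 TPM in NP and 515 ± 16 TPM in PBS (SD, n = 3 each). The leading subunits of the other complexes followed: Ap3s1 with 169.8 ± 3.9 TPM in NP and 142 ± 3.1 in PBS, and Ap1s1 with 119 ± 1.2 in NP and 120.0 ± 4.7 in PBS. Ap5z1 had 31.6 ± 1.5 in NP and 29.3 ± 0.91 in PBS, and Ap4s1 had 27.8 ± 0.87 in NP and 28.4 ± 1.2 in PBS. Ap3s1 stood above Ap1s1 by more than their SDs in both groups, as did Ap5z1 above Ap4s1 in NP, while in PBS the means of Ap5z1 and Ap4s1 differed by less than the SD of Ap4s1. These lengths count all annotated exons, so a gene with long minor transcripts, such as Cltb, may come out too low.

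The heavy chain of clathrin was not called, light chain b was higher in NP and light chain a was lower. Cltc, the heavy chain, was at 868, 811 and 799.7 CPM in NP and at 818, 828 and 829.8 CPM in PBS; the NP libraries spread around the PBS libraries, and the log2 fold change was 0.00 (95% interval -0.08 to 0.08). Cltb, the light chain b, was at 115, 100.4 and 103 CPM in NP and at 74.1, 74.8 and 78.2 CPM in PBS. It rose by 0.49 (SE 0.05, adjusted p = 0.0001, limma voom), the largest rise among the called members. Clta, the light chain a, was at 459, 477 and 439 CPM in NP and at 537, 510.1 and 571 CPM in PBS, and fell by 0.24 (SE 0.05, adjusted p = 0.00344). Neither light chain had overlapping groups. The Cltb call held under all 15 alternatives, and the Clta call was lost with the receptor covariate (adjusted p = 0.0579).

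Cltb made up 7.90% ± 0.62 of the light chain level per length in NP and 4.94% ± 0.18 in PBS (SD, n = 3 each), and Clta the rest. In plain counts the Cltb share was 18.8% in NP and 12.3% in PBS. With 3 libraries against 3 an exact permutation test cannot go below p = 0.10, which this share reached (adjusted p = 0.154 over 20 shares), so the shares are descriptions. The Ap1g2 share of the AP-1 gamma chains was 22.2% in NP and 28.0% in PBS, and the Ap1s2 share of the AP-1 sigma chains was 15.9% in NP and 21.5% in PBS. Shares of the AP-3 isoforms were alike: Ap3s2 made up 12.3% of sigma in NP and 12.5% in PBS, and Ap3m2 made up 14.9% of mu in both groups.

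**Figure D4:**
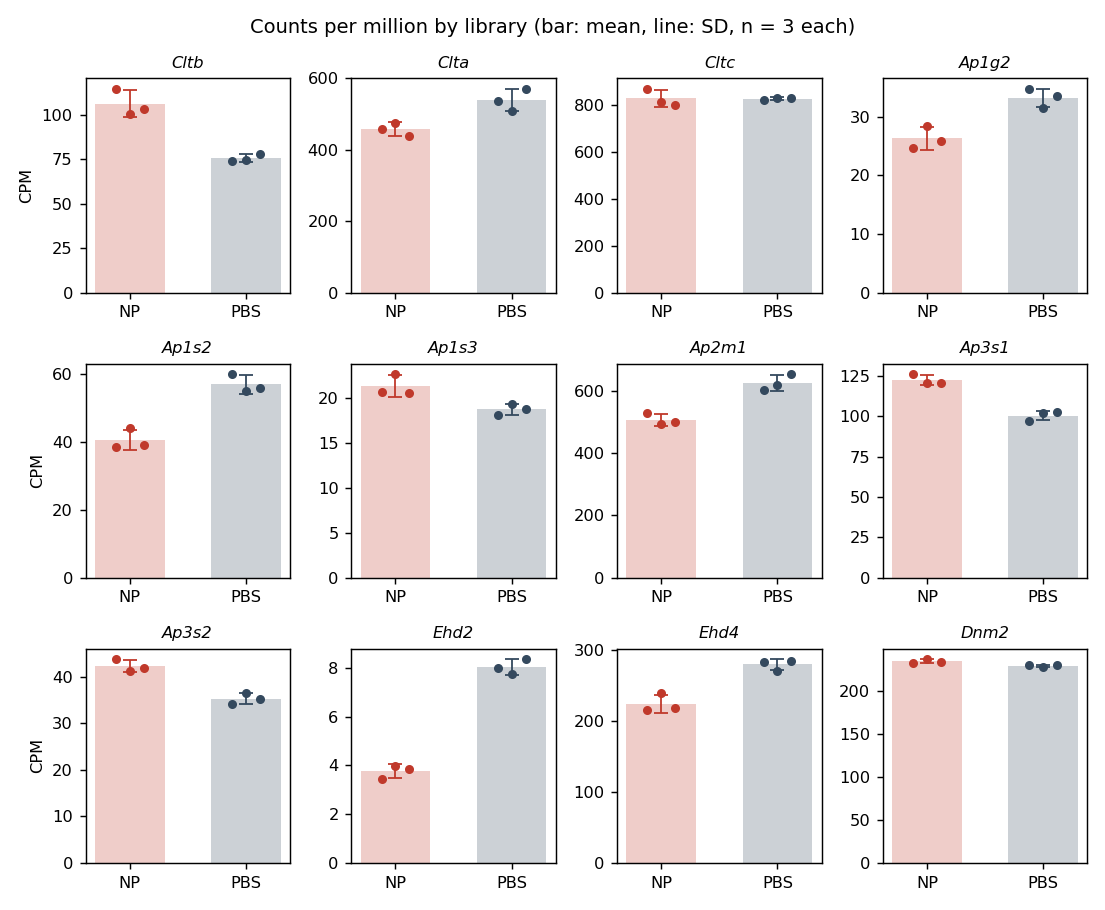
CPM (y axis, from 0) of 12 members in each library (points), with group mean (bar) and SD (line), n = 3 each, NP left of PBS. Cltb, Ap1s3, Ap3s1 and Ap3s2 are higher in each NP library than in any PBS library, Clta, Ap1g2, Ap1s2, Ap2m1, Ehd2 and Ehd4 are lower in each, Cltc overlaps, and Dnm2 differs by a few CPM.

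The endocytic adaptors that load cargo or nucleate pits beside AP-2 were lower in NP or were not called. Eps15, a scaffold of forming pits, was at 97.2, 98.3 and 98.2 CPM in NP and at 114, 108 and 114 CPM in PBS, without overlap (log2 fold change -0.19, SE 0.03, adjusted p = 0.00128, limma voom), a call that held under all 15 alternatives. Epn1, an epsin that bends membrane and binds ubiquitinated cargo, fell by 0.16 (SE 0.03) and was called under all 15 as well. Picalm, which sets vesicle size and carries SNARE proteins, was at 366, 351 and 353 CPM in NP and at 379, 385 and 357 CPM in PBS; NP 1 lay above PBS 3, and the difference of -0.07 (95% interval -0.15 to 0.02, adjusted p = 0.173) did not pass. Eps15l1 and Epn2 had -0.07 and -0.02, without a call.

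Among the dynamins, Dnm2, the form found in all tissues, made up nearly all of the level per length: 98.5% in NP and 97.9% in PBS. It was at 234, 238 and 235 CPM in NP and at 231, 229 and 231 CPM in PBS; the groups did not overlap, yet the difference of 0.03 (95% interval -0.03 to 0.09, adjusted p = 0.378, limma voom) was not called. Dnm1, best known from neurons, averaged 3.52 ± 0.32 CPM in NP and 4.57 ± 0.15 CPM in PBS (SD, n = 3 each). It was at 3.40, 3.28 and 3.89 CPM in NP 1 to 3 and at 4.58, 4.71 and 4.42 CPM in PBS 1 to 3, so PBS 1 lay between PBS 2 and PBS 3. Dnm1 fell by 0.38 on the log2 scale (SE 0.10). Its call was lost with the receptor covariate and without PBS 2 and PBS 3, where the log2 fold change was -0.39. Dnm3 was at 0.426, 0.199 and 0.364 CPM in NP and at 0.808, 1.29 and 1.40 CPM in PBS (-1.79, SE 0.34, adjusted p = 0.00252). PBS 2 and PBS 3, highest for Dnm3, are the libraries with the olfactory and vomeronasal receptor counts and nearly all counts of Stmn2, Snap25, Syt1 and Rbfox3; the part of these in the Dnm3 and Dnm1 differences was not tested. Without them the Dnm3 difference was -1.33 (adjusted p = 0.0621), and without NP 3 it was -1.85 (0.0505).

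The EHD genes were all below 0, and 2 of 4 passed (50% lower, where 21.4% of all tested genes were lower). Ehd3 turned to above 0 with the receptor covariate, without NP 2, and without PBS 2 and PBS 3. Ehd2, which surrounds caveolae at the plasma membrane, was at 3.44, 3.98 and 3.87 CPM in NP and at 7.99, 7.74 and 8.38 CPM in PBS, without overlap. Its log2 fold change of -1.10 (SE 0.09, adjusted p = 2.62e-05, limma voom) kept its call under all 15 alternatives, from -1.14 to -1.02. Ehd4, an endosomal EHD and the most abundant of the 4 per length, was at 215, 239 and 218 CPM in NP and at 283, 270.3 and 285 CPM in PBS (-0.32, SE 0.04, adjusted p = 0.000435). Ehd1, of the recycling endosome, had -0.10 (adjusted p = 0.0877; 0.0298 without NP 2) and Ehd3, at 8 to 15 counts a library in NP and 8 to 10 in PBS, had -0.13; neither passed. Ehd1 made up 27.7% of the EHD level per length in NP and 24.5% in PBS, and Ehd4 71.3% in NP and 73.8% in PBS.

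The values by library of Cltb, Clta, Ap1s2, Ap1s3, Ap1g1, Ap1g2, Ap3s2, Dnm1 and Ehd4 fall outside the rule for members printed in full and were chosen after their values were seen. In GENCODE M21 on GRCm38, Cltb lies on chromosome 13 at 54592401 to 54611344, Clta on chromosome 4 at 44004452 to 44032846 and Ap1s2 on chromosome X at 163909017 to 163933666. Ap2m1 lies on chromosome 16 at 20535478 to 20544909 and Ehd2 on chromosome 7 at 15946958 to 15967567.

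Partners of these coats were read in lists set beside the members; their background is the 19.8% higher and 21.4% lower of all tested genes. Of 24 tested accessory proteins of clathrin-mediated endocytosis, 6 were higher and 8 lower in NP. Their median was -0.04, and -0.07 over 25 genes when PBS 2 and PBS 3 were left out, which leaves PBS 1 alone against NP. Among those with the smallest p were Dab2, an adaptor for LDL receptor family cargo (log2 fold change -0.87, SE 0.08), Itsn1, a scaffold of pits (-0.75, SE 0.06), and Arrb2, the receptor adaptor beta-arrestin 2 (-0.50, SE 0.06). Of 12 tested genes of uncoating and phosphoinositides, 1 was higher and 6 were lower (median -0.05, and -0.08 without PBS 2 and PBS 3). When single libraries were left out, 1 (without NP 3) to 4 (without PBS 2) were lower. Ocrl, Pip5k1c and Pik3c2a fell by 0.21, 0.13 and 0.18, and Pip5k1a, a kinase that makes the lipid AP-2 binds, rose by 0.23.

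Among 18 tested partners of AP-1 and the other internal coats, 7 were higher and 1 lower (median 0.07, and 0.05 without PBS 2 and PBS 3). With the receptor covariate 2 were higher and 1 lower, where 1434 of all 14478 tested genes were higher and 1905 lower. Clba1, a clathrin-binding protein, rose by 0.66 (SE 0.08), Rusc2, an AP-4 partner, by 0.21 (SE 0.04), and Zfyve26, a partner of AP-5, by 0.19 (SE 0.03), while Heatr5a was lower (-0.17, SE 0.04). Of 6 tested genes in the list set beside the EHD genes, 4 were higher and 0 lower (median 0.18, and 0.15 without PBS 2 and PBS 3). Whether each binds an EHD protein was not checked. With the receptor covariate 2 of these 6 were higher and 0 lower. Micall1, the membrane hub for Ehd1, rose by 0.49 (SE 0.06), Rabgef1 by 0.41, Ehbp1 by 0.25 and Ehbp1l1 by 0.11.

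Genes of cargo receptors and of related proteins split by gene, with 4 higher (Lrpap1, not itself a receptor, among them) and 2 lower of 8 tested (median 0.07). Tfrc, the transferrin receptor and a standard AP-2 cargo, fell by 0.78 (SE 0.06), while Sort1, sortilin, rose by 0.67 (SE 0.08), M6pr, the cation-dependent mannose 6-phosphate receptor, by 0.20 (SE 0.03), and Lrpap1, a chaperone of LDL receptor family members, by 0.37 (SE 0.04). Of 10 tested genes of clathrin-independent uptake, 1 was higher and 4 were lower (median -0.11, also without PBS 2 and PBS 3). There were 2 lower without NP 3, without PBS 1, with the receptor covariate and with the replicate block. With library totals alone or sample quality weights, 7 were lower. Cav1, caveolin 1, rose by 0.54 (SE 0.09), and Arhgap26, Flot1 and Rhoa fell by 1.14, 0.21 and 0.11. Among 4 dynamin relatives with other roles, the interferon-induced Mx1 and Mx2 fell by 1.58 (SE 0.24) and 2.16 (SE 0.29), and the mitochondrial Dnm1l and Opa1 were not called (-0.05 and -0.02).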

How the data were processed

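For the 6 libraries (paired 151 bp reads, per the labels) the authors deposited expected counts per gene in 1 table, as whole numbers not scaled for depth. Its quoted layout kept the automatic unit check from reading it, so other count tests were not run. RSEM 1.3.3, STAR 2.7.8a, MultiQC 1.7, cutadapt 2.3, FastQC 0.11.8 and GRCm38 appear without roles in the submitters' processing notes; the sources used here give neither strand setting nor annotation release. Of 55491 rows, 4 construct rows with 0 counts were left out. limma 3.58.1 (voom, R 4.3.3) was fitted on the group over 14478 genes with at least 0.171 CPM in 3 libraries and 15 counts in all, with TMM factors of 0.979 to 1.02; calls used Benjamini-Hochberg adjusted p under 0.05, and each log2 fold change is NP minus PBS. The CPM of tested genes uses the scaled library sizes, other CPM the library totals. Lengths and coordinates come from GENCODE M21. Chi-square per gene within groups was 6.08 to 19.7, above sampling noise. At 3 counts the level is 0.0432 to 0.0715 CPM. The set of members, matched by symbol, the lists and the alternatives were chosen with earlier results of these data known. Values by library were to be given for members with adjusted p under 0.05 and a log2 change of at least 0.5, for the highest subunit per length of each complex, and for Cltc, Dnm2, Ap2m1, Picalm and Eps15, and 4 genes of each list by p; 1 gene that this rule takes is not reported here.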

Additional observations from a re-analysis of the deposited data

How the results depend on the processing

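For each member 15 alternatives were run, and edgeR and DESeq2, listed as alternatives, were not run. No called member changed direction, and 10 of the 22 called members kept their call under each alternative in which they were tested: Ehd2, Cltb, Ap1s2, Ap3s1, Ap2m1, Ehd4, Ap3s2, Eps15, Ap1g2 and Epn1. Members higher in NP numbered 8, but 5 with library totals alone and 3 with the receptor covariate. Leaving out each replicate in turn gave 6 to 9. Members lower in NP numbered 14, but 9 with that covariate and 9 without PBS 2 and PBS 3; leaving out each replicate gave 9 (without NP 3) to 15. Correlations of the deviations of same-numbered libraries were -0.01 to -0.14, and those of the other NP and PBS pairs were -0.03 to 0.16. With 3 libraries per group such values cannot tell whether same-numbered libraries share an animal, culture or batch. With the replicate block, 6 members were higher and 12 lower.

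The AP-1 median of -0.07 was -0.108 with library totals alone, -0.0538 without the low-count filter and 0.0146 with the strict filter, which drops Ap1m2; leaving out each replicate gave -0.0954 to -0.0542. The AP-3 median of 0.11 was 0.0757 with library totals alone and 0.10 to 0.125 over the left-out replicates. The AP-4 median of 0.05 was 0.0121 with library totals alone, 0.0135 with the covariate and 0.0120 without PBS 2 and PBS 3, and 0.0252 to 0.0787 over the left-out replicates (lowest without PBS 3, highest without PBS 1). The AP-5 median of 0.03 ran from 0.0113 to 0.0787 over them (lowest without NP 3, highest without NP 1), and was -0.01 with library totals alone, -0.00 with the covariate and -0.01 without PBS 2 and PBS 3. Counting pseudogenes as subunits, chosen after seeing the data, gave -0.12 for AP-2 and 0.11 for AP-3. The medians per list without PBS 2 and PBS 3 were also added then. With library totals alone the median of all genes was -0.04. Why the medians of the complexes moved was not tested.

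Over all genes, 2872 were higher and 3092 lower, against 1434 and 1905 with the covariate and 1197 and 1775 without PBS 2 and PBS 3. The split was 2280 and 3653 with library totals alone, and 2616 and 3850 without PBS 1, and 2102 and 1975 without NP 3. Depth limits Ap1m2, Ehd3 and Dnm3, at under 100 counts a library.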
